A study of Mus musculus with 4 samples.

Results

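The mitosis genes are 35 genes whose products act in G2 and M phase, at the spindle, at the kinetochore and in cytokinesis. They were taken by gene symbol, and all 35 were found among the 26334 rows of the expression table. RNA was sequenced from mouse CD4+ T cells (poly(A) RNA) that were naive when taken from the spleen and then spent 5 days in T helper 1 (Th1) culture, with PBS (the vehicle; n = 2 libraries) or with interleukin-16 (IL-16, a cytokine that binds CD4; n = 2 libraries). The sources used here give no strain, no age of the mice and no dose of IL-16. No label says whether replicate libraries stem from separate mice or cultures, so p-values reflect only how far these libraries differ, and that spread may be technical.

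Dividing cells make these transcripts in a wave that peaks in G2 and M phase. Cyclins A and B switch on the kinase Cdk1, the Polo and Aurora kinases build the spindle, kinetochores hold the chromosomes, and the spindle checkpoint holds back the anaphase-promoting complex (APC/C) until all chromosomes are attached. The APC/C then marks cyclin B and securin for destruction, sister chromatids part and the cytokinesis machinery divides the cell. T cells that have met antigen divide fast, so the transcripts are known as a mark of expanding T cells.

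The cell type field of the labels names peritoneal macrophages, whereas the titles name Th1 cells, and the transcripts were those of T cells in all 4 libraries. The summed level of 12 CD4+ T cell markers was between 2000 and 2320 FPKM (fragments per kilobase of transcript, scaled to library size) per library. The sum of 16 macrophage markers was between 4.92 and 6.40 FPKM, with Marco, Fcgr1, C1qc and Timd4 at 0 in every library. Sums were between 2.82 and 5.08 FPKM for 8 B cell markers, between 8.23 and 9.99 FPKM for the CD8 pair Cd8a and Cd8b1, from 24.9 to 30.8 FPKM for 6 NK cell markers, between 1.45 and 2.18 FPKM for 6 dendritic cell markers and between 2.30 and 3.23 FPKM for 6 erythroid markers. The sum of 8 neutrophil and mast cell markers was between 27.7 and 32.9 FPKM, of which Ly6g reached 29.7 FPKM while S100a8, S100a9 and Elane were at 0. Library totals were between 373924 and 391153 FPKM, and the number of reads behind a value is unknown.

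The mitosis genes were well expressed with and without IL-16, and none of the 35 passed the threshold (limma, adjusted p under 0.05, adjusted over 11882 rows). All 35 met the filter, which asked for 1 FPKM or more in 2 or more libraries, and so all were tested. Over all tested rows 26 passed, or 0.219% (0.16% higher and 0.0589% lower with IL-16), so a count of 0 among 35 was near the background. Their mean level had a median of 24.8 FPKM, against 10.5 FPKM over all tested rows, and ran from 8.07 FPKM (Ttk) to 147 FPKM (Top2a). Before adjustment, 6 of the 35 (17.1%) had a p under 0.05, against 23.4% of all tested rows. Those 6 were Mki67, Incenp, Tpx2, Nusap1, Ube2c and Cenpf, all higher with IL-16, against 9.59% of tested rows that were higher and 13.9% that were lower at that level. Limma without the mean-variance trend called 0 of all tested rows, so its count of 0 members was fixed.

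Differences were small and went both ways. On the log2(FPKM + 1) scale, 21 members were above 0 and 14 below 0, with a median difference of 0.073 against -0.044 over all tested rows, and a range from -0.33 (Cdk1) to 0.52 (Ube2c). The ratio of mean FPKM, IL-16 over PBS, lay between 0.9 and 1.1 for 15 members, was widest upward for Ube2c (1.47), Mki67 (1.38) and Incenp (1.34), and was under 0.8 for Cdk1 alone (0.792). The 95% interval of the difference stayed within 1 on the log2 scale for all 35 members and within 0.5 for 26 of them. An exact permutation test of any single value cannot give a p under 0.333 here.

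**Figure D1:**
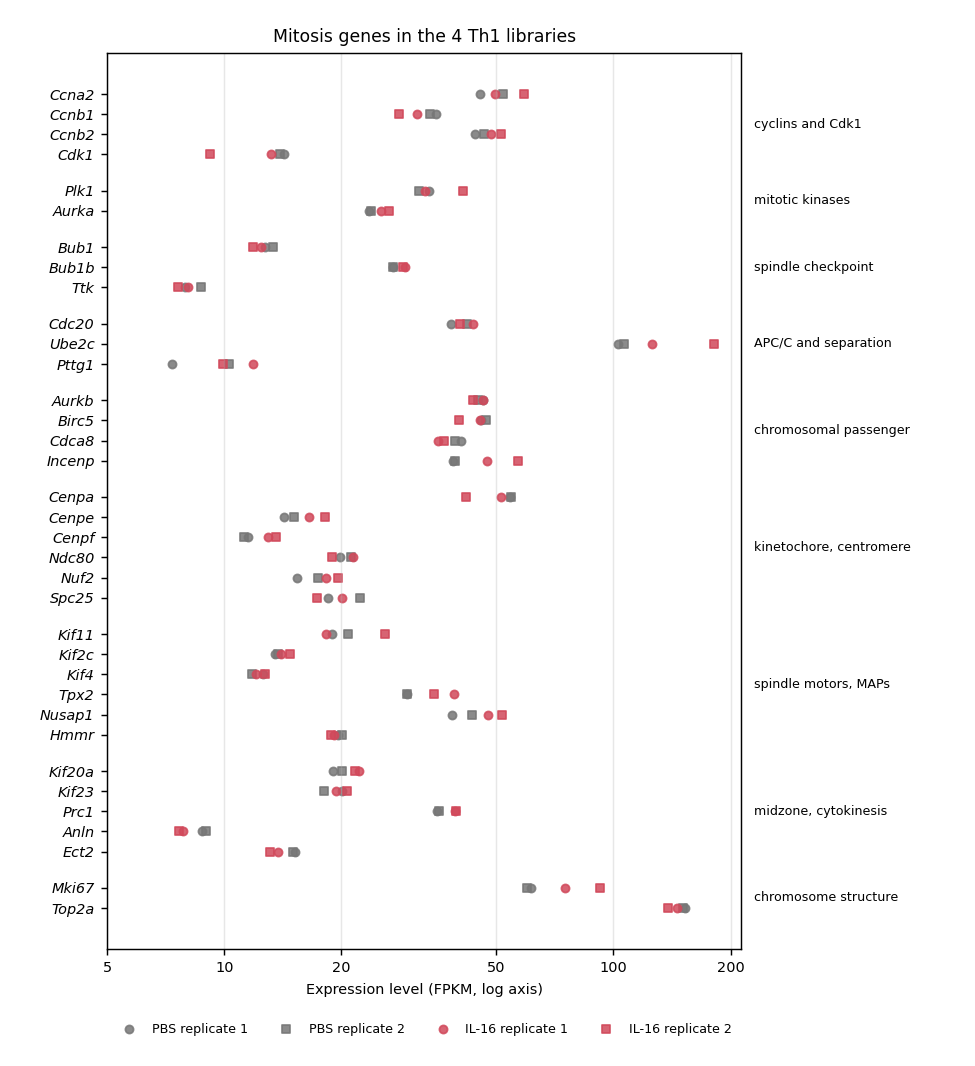
Expression level of each mitosis gene in FPKM on a log axis, 1 point per library (grey PBS, red IL-16; circle replicate 1, square replicate 2), grouped by role. Most genes hold their 4 points close together, and Ube2c, Mki67 and Incenp have both IL-16 points to the right of both PBS points.

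The groups did not overlap for 24 members (68.6%), 14 with both IL-16 values above both PBS values and 10 with both below. Of all tested rows 58.9% did not overlap, 24.1% upward and 34.8% downward. The members varied less between PBS libraries than other genes did, with a median absolute difference of 0.048 on the log2 scale between the PBS libraries, against 0.086 over all tested rows. Between the IL-16 libraries it was 0.098, against 0.142. The members were also more abundant, with a median level of 24.8 FPKM against 10.5 FPKM. The part of level in this smaller spread was not tested. In bulk RNA, a different share of cells in mitosis and a different amount of RNA per cell cannot be told apart.

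Promoters of several of these genes are shown. Of those shown, Cdk1 was lower with IL-16, while Ccnb2 and Mki67, with the same numbers of the matches described below, were higher. Ccnb1 and Ube2c hold other numbers of matches, and none of these genes passed the threshold. In dividing cells mitosis genes are known to be controlled through the cell cycle genes homology region (CHR), the site of the MuvB complex. Control through CCAAT boxes, the site of NF-Y, is also known for them. The RefSeq table (GRCm38.p6) held windows of 250 bases before to 50 bases after the start site for 30 of the 35 genes, with 2 windows each for Ect2 and Prc1. It gave none for Ccna2, Aurkb, Incenp, Tpx2 and Kif20a. The submitters' notes name GRCm39, so the positions are those of RefSeq and not of the expression table. Letters in capitals match the CHR (TTTGAA or TTCGAA) or the CCAAT box (CCAAT) on either strand, and matches on opposite strands can overlap, as in the stretch CCAATTGG of Ube2c, which counts as 2. All are written 5′ to 3′.
Ccnb1 promoter (GRCm38.p6 chr13:100786437-100786736, minus strand, cyclin B1, lower with IL-16): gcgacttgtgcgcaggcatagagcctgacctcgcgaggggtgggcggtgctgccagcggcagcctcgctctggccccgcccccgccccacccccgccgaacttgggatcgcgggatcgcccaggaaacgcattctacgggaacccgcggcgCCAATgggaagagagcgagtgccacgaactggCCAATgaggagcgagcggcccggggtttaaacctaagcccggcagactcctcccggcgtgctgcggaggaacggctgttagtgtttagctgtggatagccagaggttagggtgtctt
Ccnb2 promoter (GRCm38.p6 chr9:70421505-70421804, minus strand, cyclin B2, higher with IL-16): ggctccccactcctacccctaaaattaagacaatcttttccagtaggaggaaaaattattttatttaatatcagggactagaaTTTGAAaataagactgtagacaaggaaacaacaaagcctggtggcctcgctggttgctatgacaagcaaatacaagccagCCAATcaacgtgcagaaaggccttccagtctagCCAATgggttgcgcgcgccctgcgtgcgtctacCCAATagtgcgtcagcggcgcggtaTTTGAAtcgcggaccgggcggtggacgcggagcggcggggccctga
Cdk1 promoter (GRCm38.p6 chr10:69352863-69353162, minus strand, the partner kinase of both, lower with IL-16): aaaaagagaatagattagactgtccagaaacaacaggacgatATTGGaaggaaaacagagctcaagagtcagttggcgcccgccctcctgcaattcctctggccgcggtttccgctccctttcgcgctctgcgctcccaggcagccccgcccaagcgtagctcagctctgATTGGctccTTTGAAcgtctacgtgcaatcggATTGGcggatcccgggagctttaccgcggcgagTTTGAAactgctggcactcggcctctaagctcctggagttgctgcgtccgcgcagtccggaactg
Ube2c promoter (GRCm38.p6 chr2:164769679-164769978, plus strand, the widest difference upward): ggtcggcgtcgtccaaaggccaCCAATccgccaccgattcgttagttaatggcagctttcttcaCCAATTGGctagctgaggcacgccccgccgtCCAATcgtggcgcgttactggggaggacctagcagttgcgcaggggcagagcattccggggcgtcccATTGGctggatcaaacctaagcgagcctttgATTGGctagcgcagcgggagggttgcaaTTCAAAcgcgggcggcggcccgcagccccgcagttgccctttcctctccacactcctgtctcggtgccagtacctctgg
Mki67 promoter (GRCm38.p6 chr7:135716330-135716629, minus strand, the smallest p of the set): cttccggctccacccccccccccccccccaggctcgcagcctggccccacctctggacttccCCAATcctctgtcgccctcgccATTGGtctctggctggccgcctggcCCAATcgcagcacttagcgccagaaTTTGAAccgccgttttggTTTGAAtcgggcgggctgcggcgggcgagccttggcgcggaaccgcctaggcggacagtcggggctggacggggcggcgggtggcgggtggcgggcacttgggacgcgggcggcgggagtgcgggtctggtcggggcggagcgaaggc

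CHR letters were in 26 of 32 member windows (81.2%), against 19.2% of 32851 promoter windows in the table and 14.1% of the windows of tested rows. CCAAT was in 25 of the 32 (78.1%), against 37.4% of all windows, and 18 (56.2%) held at least 2 matches, against 11.7%. Both were present in 71.9% of member windows, against 7.52% of all windows. The 2 windows of Ect2 overlap, as do those of Prc1, so letters of these genes were counted in both, also among the matches below. By gene, 24 of 30 held CHR letters, 23 held CCAAT and 21 held both. Of the 36 CHR matches, 18 were centred from 0 to 50 bases downstream of the start site, where 11.6% of the 7260 CHR matches in all windows were. The CCAAT matches of the members lay mostly upstream, with a median centre at -66 bases, but so does most of each window. From 0 to 50 bases lay 3.28% of them, against 10.7% of CCAAT matches in all windows. Among 117 windows of other mitosis genes the shares were 44.4% with CHR, 58.1% with CCAAT and 29.1% with both. Among 39 windows of DNA replication genes the CHR share was 15.4%, while the CCAAT share was 61.5%. A match describes letters only and is not a site.

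**Figure D2:**
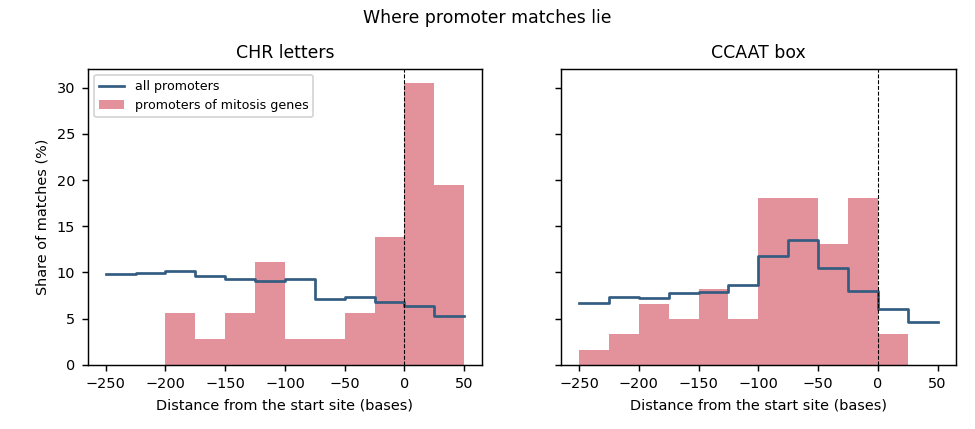
Position of CHR and CCAAT matches relative to the start site in bins of 25 bases, as a share of matches, for the mitosis genes (bars) and all RefSeq promoter windows (line). CHR matches of the mitosis genes gather from 0 to 50 bases downstream (18 of 36, against 11.6% in all windows). Their CCAAT matches centre upstream at a median of -66 bases, with 3.28% from 0 to 50 bases, against 10.7% in all windows. Windows that overlap were counted apart.

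Genes with and without CHR letters were found on both sides of 0, and no difference between them was tested. Of 24 genes with CHR letters, 13 were above 0 with IL-16 and 11 below 0. Of 6 genes without TTTGAA or TTCGAA in the window (Birc5, Ccnb1, Cenpe, Nuf2, Nusap1 and Pttg1), 4 were above 0 and 2 below 0. Other forms of the CHR were not searched. Ccnb2 and Cdk1, each with 2 CHR and 3 CCAAT matches in the sequences above, stood on opposite sides of 0.

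Among the cyclins and their kinase, the B-type cyclins differed in direction. Ccnb1, which encodes the main mitotic partner of Cdk1, was 34.9 and 33.8 FPKM under PBS against 31.2 and 28.1 FPKM under IL-16. Ccnb2, the other B-type cyclin, was 44.2 and 46.5 FPKM under PBS against 48.5 and 51.4 FPKM under IL-16. The IL-16 values lay below both PBS values for Ccnb1 and above both for Ccnb2, with log2 differences of -0.21 (interval -0.41 to 0.0024) and 0.14 (interval -0.051 to 0.32) and adjusted p of 0.216 and 0.319. The ratio of Ccnb1 to Ccnb2 was 0.791 and 0.726 with PBS and 0.644 and 0.548 with IL-16. The opposite directions of the pair fix the order of these ratios, which are given as a description.

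Cdk1, the kinase that drives entry into mitosis, was 14.3 and 13.9 FPKM under PBS against 13.2 and 9.16 FPKM under IL-16. The low value was that of IL-16 replicate 2, and the groups did not overlap (log2 difference -0.33, SE 0.168, adjusted p = 0.293). Ccna2, which encodes the cyclin A of S phase and G2, was 45.4 and 52.1 FPKM under PBS against 49.7 and 59.1 FPKM under IL-16, so the groups overlapped (log2 difference 0.15, adjusted p = 0.455). The 4 genes summed to 138.8 and 146.3 FPKM under PBS against 142.5 and 147.7 FPKM under IL-16.

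The Polo and Aurora A kinase genes were slightly higher with IL-16. Plk1, the Polo kinase of centrosome maturation and mitotic entry, was 33.6 and 31.6 FPKM under PBS against 32.8 and 41.1 FPKM under IL-16. IL-16 replicate 1 lay between the PBS values and IL-16 replicate 2 above them (log2 difference 0.17, adjusted p = 0.438). Aurka, the Aurora kinase of the spindle poles, was 23.5 and 23.8 FPKM under PBS against 25.3 and 26.5 FPKM under IL-16 (log2 difference 0.13, adjusted p = 0.338), with no overlap. Tpx2, which activates Aurora A on spindle microtubules, was 29.6 and 29.4 FPKM under PBS against 38.9 and 34.6 FPKM under IL-16. It was the gene with the third smallest p of the set (log2 difference 0.31, SE 0.084, adjusted p = 0.138), and here IL-16 replicate 1 was the higher of the IL-16 libraries.

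The spindle checkpoint genes had ratios within the narrow band of 0.9 to 1.1. Bub1b, which encodes BubR1, the checkpoint inhibitor of the APC/C, was 27.1 FPKM in both PBS libraries and 29.2 and 28.7 FPKM with IL-16 (log2 difference 0.094, interval -0.080 to 0.27, adjusted p = 0.441). Bub1, the kinase that recruits checkpoint proteins to kinetochores, was 12.7 and 13.3 FPKM under PBS against 12.4 and 11.8 FPKM under IL-16. Ttk, which encodes the checkpoint kinase Mps1, had the lowest level of the 35 genes, 8.32 ± 0.565 FPKM under PBS against 7.83 ± 0.306 FPKM under IL-16 (mean ± SD, n = 2 each). Bub1 was lower without overlap and Ttk overlapped (adjusted p = 0.523 and 0.659).

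Genes of the APC/C and of chromosome separation held the widest upward difference. Ube2c, which encodes the ubiquitin-conjugating enzyme that starts chains on APC/C substrates, was 103 and 106 FPKM under PBS against 125 and 181 FPKM under IL-16. Both IL-16 values were above both PBS values, and the gap between the 2 IL-16 values was wider than that from IL-16 replicate 1 down to PBS. The mean was 1.47-fold higher with IL-16 (log2 difference 0.52, SE 0.176, interval 0.078 to 0.97), and it did not pass over all rows (adjusted p = 0.177). Cdc20, the APC/C activator that the checkpoint restrains, was 40.1 ± 2.75 FPKM under PBS against 42.0 ± 2.41 FPKM under IL-16 (adjusted p = 0.671). Pttg1, which encodes securin, was 7.35 and 10.3 FPKM under PBS against 11.9 and 9.94 FPKM under IL-16, with overlapping groups and, on the log2 scale, the widest gap between the PBS libraries of the 35 (adjusted p = 0.355).

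The chromosomal passenger complex, which corrects faulty attachments and then moves to the midzone, was uneven. Incenp, its scaffold, was 38.8 and 39.1 FPKM under PBS against 47.4 and 56.9 FPKM under IL-16. Both IL-16 values were above both PBS values (ratio 1.34, log2 difference 0.41, SE 0.104, interval 0.14 to 0.67, adjusted p = 0.129). Aurkb, its kinase, was 46.2 and 44.8 FPKM under PBS against 46.2 and 43.5 FPKM under IL-16, a log2 difference of -0.022 that was 0.024 after median-of-ratios scaling. Birc5, which encodes survivin, was 46.5 ± 0.924 FPKM under PBS against 42.7 ± 3.69 FPKM under IL-16, and Cdca8, which encodes borealin, was 40.6 and 39.2 FPKM under PBS against 35.4 and 36.8 FPKM under IL-16. Both were lower without overlap (log2 differences -0.12 and -0.14, adjusted p = 0.420 and 0.292).

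**Figure D3:**
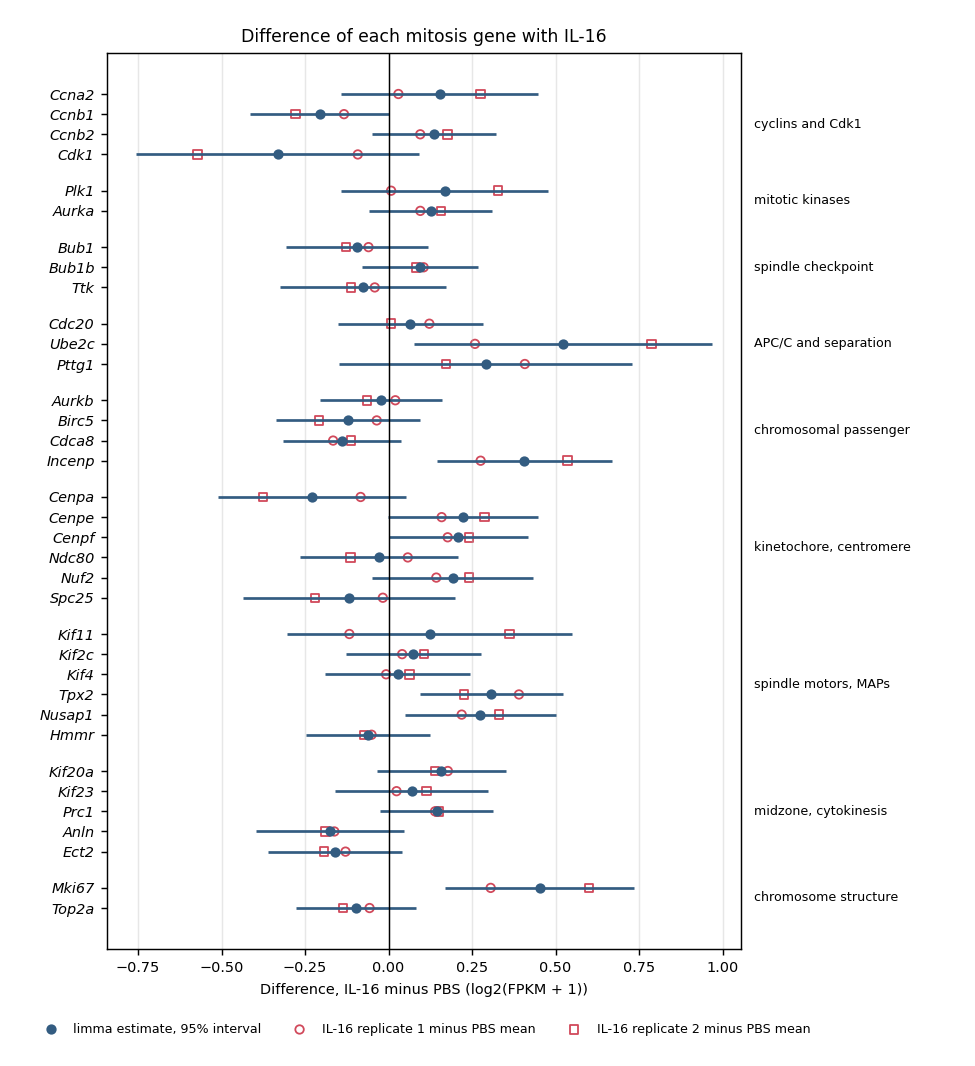
Difference between IL-16 and PBS for each mitosis gene on the log2(FPKM + 1) scale: filled points are limma estimates with 95% intervals, open red symbols the 2 IL-16 libraries relative to the PBS mean. IL-16 replicate 2 (squares) lies farther from 0 than replicate 1 (circles) for 29 of 35 genes (82.9%), against 67.2% of all tested rows.

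At the centromere and kinetochore, Cenpe and Cenpf were higher and the centromeric histone gene was lower with IL-16, all short of the threshold. Cenpa, which encodes the histone H3 variant that marks centromeres, was 54.3 and 54.7 FPKM under PBS against 51.4 and 41.8 FPKM under IL-16 (log2 difference -0.23, adjusted p = 0.277). The lowest of these was again IL-16 replicate 2, and the groups did not overlap. Cenpe, a kinetochore motor that carries chromosomes to the spindle equator, was 14.7 ± 0.657 FPKM under PBS against 17.3 ± 1.15 FPKM under IL-16. Cenpf, a large protein of the outer kinetochore, was 11.3 ± 0.166 and 13.3 ± 0.451 FPKM. Neither Cenpe nor Cenpf overlapped between the groups (log2 differences 0.22 and 0.21, adjusted p = 0.215 and 0.211).

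The Ndc80 complex grips microtubules, and its subunits did not share a direction. Nuf2 was 15.4 and 17.4 FPKM under PBS against 18.2 and 19.6 FPKM under IL-16 (log2 difference 0.19, adjusted p = 0.287). Its partner Ndc80 was 20.5 ± 0.932 FPKM under PBS against 20.1 ± 1.77 FPKM under IL-16, and Spc25 was 20.4 ± 2.74 and 18.6 ± 1.96 FPKM (SD, n = 2 each). The groups overlapped for Ndc80 and Spc25 (adjusted p = 0.877 and 0.589), and Nuf2 was higher in both IL-16 libraries. The remaining subunit, Spc24, which is not among the 35 genes, was 19.8 and 18.9 FPKM under PBS against 17.95 and 15.2 FPKM under IL-16, lower without overlap (log2 difference -0.22, adjusted p = 0.273).

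Of the spindle motors and microtubule-associated proteins other than Tpx2, Nusap1 differed most. Nusap1, which bundles spindle microtubules near chromosomes, was 38.6 and 43.3 FPKM under PBS against 47.7 and 51.7 FPKM under IL-16 (log2 difference 0.27, interval 0.048 to 0.50, adjusted p = 0.170). Kif2c, a microtubule-depolymerizing kinesin, Kif4, the chromokinesin, and Hmmr, a spindle assembly factor, had log2 differences of 0.073, 0.027 and -0.062. Their adjusted p-values lay between 0.602 and 0.869.

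Kif11, the kinesin that pushes the spindle poles apart, was listed in 2 rows, between which reads can be split. The Kif11 row was 19.0 and 20.8 FPKM under PBS against 18.2 and 25.8 FPKM under IL-16, whereas the copy row Kif11-2 was 18.2, 16.7, 17.7 and 11.7 FPKM in the same order. IL-16 replicate 2 was the highest library in the first row and the lowest in the second. Their sum was 37.2 and 37.5 FPKM under PBS against 35.9 and 37.5 FPKM under IL-16 (log2 difference -0.025, adjusted p = 0.854). The difference of 0.12 in the Kif11 row was therefore not present in the sum.

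Of 5 midzone and cytokinesis genes 3 were above 0 and 2 below 0. None had an unadjusted p under 0.05, against 23.4% of all tested rows. Prc1, which bundles the antiparallel microtubules of the midzone, was 35.3 and 35.7 FPKM under PBS against 39.2 and 39.5 FPKM under IL-16 (log2 difference 0.14, adjusted p = 0.261). Kif20a, a midzone kinesin, was 19.6 ± 0.747 FPKM under PBS against 21.9 ± 0.436 FPKM under IL-16 (adjusted p = 0.275). Anln, the contractile ring scaffold anillin, was 8.76 and 8.98 FPKM under PBS against 7.82 and 7.66 FPKM under IL-16, and Ect2, the exchange factor that activates RhoA at the cell equator, was 15.1 ± 0.131 and 13.4 ± 0.451 FPKM. The groups did not overlap in these 4 genes, nor in 58.9% of all tested rows. The adjusted p of Anln and Ect2 was 0.290 and 0.285. Kif23, the kinesin of centralspindlin, overlapped (log2 difference 0.069, adjusted p = 0.667).

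Mki67 and Top2a, the chromosome structure genes that are widely read as proliferation markers, went opposite ways. Mki67, which encodes the Ki-67 protein of the chromosome surface, was 61.6 and 59.8 FPKM under PBS against 75.2 and 92.5 FPKM under IL-16. It was 1.38-fold higher with no overlap and had the smallest p of the 35 (log2 difference 0.45, SE 0.112, interval 0.17 to 0.74, adjusted p = 0.122). Top2a, which encodes topoisomerase II alpha, was the most abundant member at 153 and 151 FPKM under PBS against 146 and 138 FPKM under IL-16. Both IL-16 values were below both PBS values, by a log2 difference of -0.097 (interval -0.28 to 0.083, adjusted p = 0.442).

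Summed over the 35 genes, the level was 1142 and 1169 FPKM under PBS against 1219 and 1293 FPKM under IL-16, a difference of 100.4 FPKM between the means. Without Ube2c, Mki67 and Incenp, which were picked for their high ratios, the sums were 939.0, 963.9, 971.4 and 962.1 FPKM, a difference of 15.3 FPKM. The sums of the other 32 genes overlapped between the groups. Sums follow the most abundant genes and carry no test.

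The differences were larger in the second IL-16 library than in the first. The median of the 35 members relative to the PBS mean was 0.029 for replicate 1 and 0.11 for replicate 2, against -0.018 and -0.063 over all tested rows. IL-16 replicate 2 was the highest or the lowest library for 29 members (82.9%), 16 times the highest and 13 times the lowest. It was so for 67.9% of all tested rows. Relative to the PBS mean, which both comparisons share, 19 of 35 members were above it and 12 below it in both IL-16 libraries. Of the 11882 tested rows, 3759 were above it and 5186 below it in both, so there more rows lay below than above.

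Leaving out IL-16 replicate 1 gave 6 member calls, with the lone IL-16 library assumed to vary like the PBS libraries. Ube2c, Mki67, Incenp and Plk1 were then higher (adjusted p = 0.0112, 0.0119, 0.0133 and 0.0450) and Cenpa and Cdk1 lower (adjusted p = 0.0216 and 0.0227). These 6 of 35 are 17.1%, and 17.4% of all tested rows were called in that fit (6.44% higher and 10.9% lower). Leaving out IL-16 replicate 2 gave 0 member calls and 0.446% of all tested rows (0.244% higher and 0.202% lower), and the smallest adjusted p was then that of Tpx2 (0.0869).

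In IL-16 replicate 2 the median difference rose with coding length over all tested rows. Among the members the rise was not steady. Lengths were taken from GENCODE vM21 (GRCm38), which matched all 35 members and 86.3% of tested rows. Over all tested rows with a length, the median difference of IL-16 replicate 2 from the PBS mean was -0.15 for coding lengths up to 852 bases, -0.086 from 855 to 1362 bases, -0.057 from 1365 to 2172 bases and -0.0092 above that. In the other IL-16 library, replicate 1, the same medians were -0.049, -0.027, -0.023 and 0.0042. The members were longer than other genes, with a median of 1926 bases against 1362, and 16 of 35 were in the longest class.

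Of 5 members in the shortest class, 3 were below 0 in IL-16 replicate 2. Cenpa (402 bases), Birc5 (420 bases) and Spc25 (678 bases) were -0.38, -0.21 and -0.22 from the PBS mean there. In the class from 855 to 1362 bases, Cdk1 (891 bases) was -0.57 in that library. Of the others in that class, Ccnb1, Cdca8 and Aurkb were also below 0, and Nusap1, Ccna2, Ccnb2 and Aurka were above 0. The longest members, Mki67 (9531 bases), Cenpf (8991 bases) and Cenpe (7413 bases), were 0.60, 0.24 and 0.29 in IL-16 replicate 2. The next longest, Top2a (4584 bases), was -0.14. The short genes Ube2c (537 bases) and Pttg1 (597 bases) went against the pattern of all tested rows, at 0.79 and 0.17. From the shortest to the longest class the medians of the members in that library were -0.21 (5 genes), 0.047 (8 genes), 0.13 (6 genes) and 0.098 (16 genes). Across the 35 members Spearman's rho between coding length and difference was 0.208 in IL-16 replicate 2 and 0.0459 in replicate 1, and over all tested rows 0.183 and 0.0918. The points share their libraries, and the part of length in the differences was not tested.

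**Figure D4:**
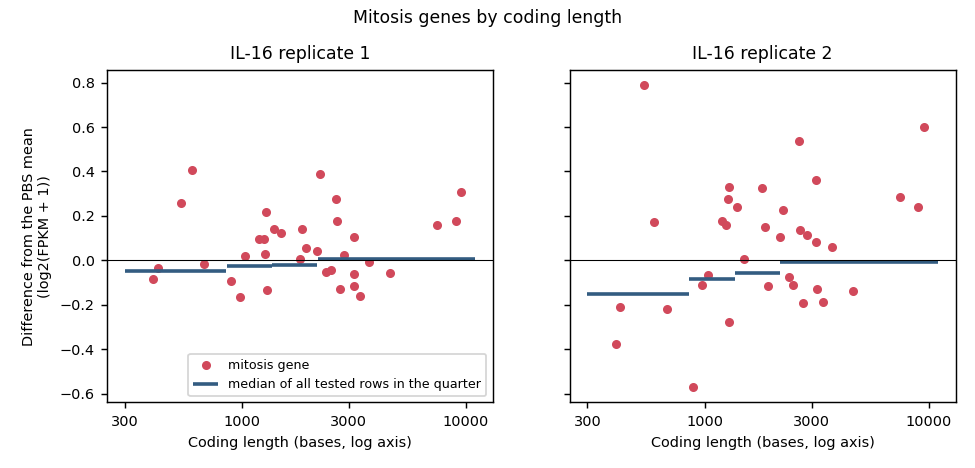
Difference of each IL-16 library from the PBS mean on the log2(FPKM + 1) scale against coding length in bases on a log axis; points are the 35 mitosis genes and bars the medians of all tested rows by length class. In IL-16 replicate 2 the bars climb from -0.15 to -0.0092.

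Ribosomal protein rows, which are short, also differed between the libraries. Their share of the summed FPKM was 16.3% for each PBS library, against 14.9% for the first and 13.2% for the second IL-16 library. With those rows left out and libraries rescaled to equal totals, the members' median difference was 0.067. Over all tested rows of that fit it was -0.057. Called were 0 members and 34 of all tested rows.

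Some members share exon bases with a gene on the other strand in GENCODE, and the sources used here give no strand setting of the counting, so reads in those bases cannot be assigned. The shares of member exon bases were 29.3% for Kif20a with Cdc23, 22.8% for Ube2c with Tnnc2, 15.1% for Kif4 with Pdzd11, 12.5% for Ccna2 with Exosc9 and 11.1% for Prc1 with Rccd1, and under 10% for Plk1, Cdc20, Cdca8 and Nusap1. Tnnc2 averaged 0.216 FPKM, against 129 FPKM for Ube2c. Other partners were expressed at levels nearer to those of the members, with means of 13.3 FPKM for Cdc23 (Kif20a 20.7 FPKM), 17.8 FPKM for Pdzd11 (Kif4 12.3 FPKM), 33.7 FPKM for Elovl1 (Cdc20 41.0 FPKM) and 4.17 FPKM for Rccd1 (Prc1 37.4 FPKM). Exosc9 ran from 12.3 to 16.2 FPKM over the libraries, below Ccna2 in each.

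A wider list of 122 other mitosis genes held APC/C subunits, cohesin, condensin, the constitutive centromere proteins and centrosome genes, among others. It had 0 calls as well, higher or lower, against 0.219% of all tested rows, so the count was near the background. Its median difference was -0.036, between that of the 35 members (0.073) and that of all tested rows (-0.044), with 50 genes above 0 and 72 below 0. Above 0 were thus 41.0% of the list and 42.2% of all tested rows. Before adjustment 19 genes (15.6%, against 23.4% of all tested rows) had a p under 0.05, of which 9 were higher and 10 lower. Kif18b, a kinesin of microtubule plus ends, had the smallest p, with 16.4 and 15.4 FPKM under PBS against 21.97 and 24.5 FPKM under IL-16 (log2 difference 0.52, adjusted p = 0.0991). Cenpp and Cenpw, subunits of the inner kinetochore, were lower in both IL-16 libraries (log2 differences -0.51 and -0.99, adjusted p = 0.109 and 0.117). Cenpw was 4.99 and 5.20 FPKM under PBS against 2.86 and 1.43 FPKM under IL-16.

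Within the wider list 14 of 22 spindle and centrosome genes (63.6%) were above 0, with a median of 0.073, as were 6 of 20 inner centromere genes (30.0%), with a median of -0.083. The share above 0 was 2 of 8 for condensin genes and 8 of 17 for APC/C genes (47.1%). Over all tested rows it was 42.2%, with a median of -0.044. The difference between these subgroups was not tested.

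The regulators of the mitotic wave also gave 0 calls among 24 tested, against 0.219% of all tested rows. Of them 5 were higher and 1 lower at an unadjusted p under 0.05. At that level were thus 6 of 24 genes, a share close to the 23.4% of all tested rows. Lin37, a subunit of the MuvB complex that occupies the CHR, was 20.2 and 21.4 FPKM under PBS against 27.3 and 32.1 FPKM under IL-16 (log2 difference 0.49, adjusted p = 0.106). Mybl2 and Foxm1, the activators that join MuvB in S phase and G2, were higher in both IL-16 libraries (log2 differences 0.33 and 0.29, adjusted p = 0.140 and 0.150). Foxm1 was 22.3 and 21.5 FPKM under PBS against 25.6 and 28.4 FPKM under IL-16. The median of the 24 was 0.039, with 13 above 0 and 11 below 0. The 1 gene lower at an unadjusted p under 0.05 was Nfyb (log2 difference -0.25, adjusted p = 0.172). Rbbp4, Lin52 and Lin9 were also below 0 (-0.26, -0.098 and -0.020), and Lin54 was above 0 (0.20).

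G1 cyclins, inhibitors and DNA replication genes likewise held 0 calls, against 0.219% of all tested rows. Of 15 genes of the G1 list 11 were tested, and Ccnd1, Cdkn1c, Cdkn2a and Cdkn2b stayed under 1 FPKM in every library. Cdkn2d, which encodes the G1 inhibitor p19 INK4d, was 107.5 and 103.7 FPKM under PBS against 77.6 and 66.0 FPKM under IL-16 (log2 difference -0.55, adjusted p = 0.101). Ccnd3 and Ccne1, cyclins of G1, were higher in both IL-16 libraries (log2 differences 0.33 and 0.31, adjusted p = 0.120 and 0.121).

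The 43 DNA replication genes had a median difference of -0.036, with 19 above 0 (44.2%) and 24 below 0, and 10 (23.3%) at an unadjusted p under 0.05. These shares were near those of all tested rows, 42.2% above 0 and 23.4% under that p. Tk1, the thymidine kinase of S phase, was 50.2 and 54.8 FPKM under PBS against 39.1 and 36.0 FPKM under IL-16 (log2 difference -0.47, adjusted p = 0.101). Rfc4, a subunit of the clamp loader, was lower and Prim2, a subunit of primase, was higher in both IL-16 libraries (log2 differences -0.48 and 0.29, adjusted p = 0.105 and 0.123). Mitosis and replication genes were not compared by a test of the difference.

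**Figure D5:**
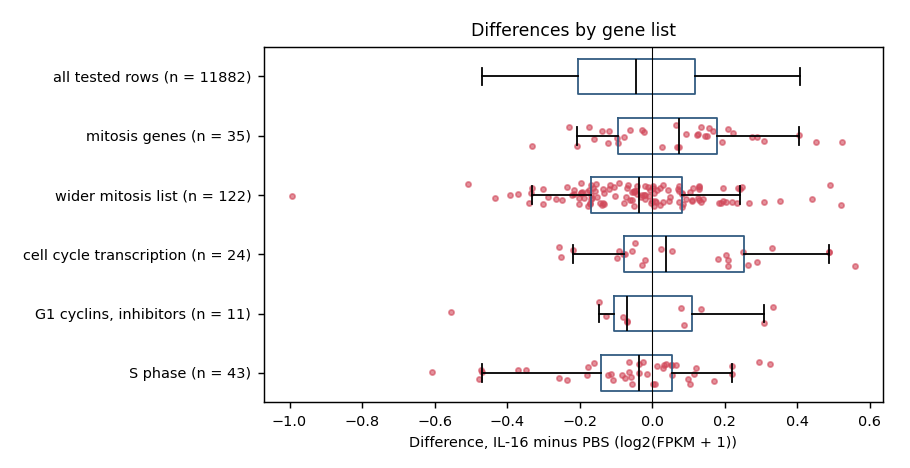
Differences between IL-16 and PBS on the log2(FPKM + 1) scale by gene list; boxes span the quartiles with the median, whiskers the 5th to 95th percentile, and points are genes. The box of the mitosis genes (median 0.073) overlaps that of all tested rows (median -0.044).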

How the data were processed

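The deposited table gave 1 value per gene and library. Its unit is not named. Fractional values and unequal column totals led to the reading of the deposited values as FPKM. The submitters' processing notes name fastp, HISAT2, featureCounts and GRCm39, without versions. The step that made the values is not given in the sources used here. At most 1.49% of ratios between libraries among low genes fell in a window of 0.5%, so whole reads were not recovered and no counting interval is given. Groups and replicate numbers came from the titles.

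Rows with at least 1 FPKM in at least 2 libraries (11882 of 26334) were tested with limma 3.58.1 (R 4.3.3) on the log2(FPKM + 1) of the deposited values. The model held the group alone, with a mean-variance trend, two-sided tests and Benjamini-Hochberg adjustment over all tested rows (threshold 0.05). This scale understates differences of low genes. Ratios are of mean FPKM, and errors are SD over 2 libraries. The fit was run on simulated data with changes larger than any difference of the members. That run therefore does not show whether differences of their size could be found. Gene lists other than the 35 mitosis genes are described by counts and medians. The genes named in full were those past the threshold, the 3 with the smallest p, the 3 with the largest and the 3 with the smallest difference, the most abundant of each role, and Mki67, Ccnb1, Cdk1, Top2a, Plk1 and Aurkb; of other lists, the 3 with the smallest p. Other genes named were chosen after their values were seen. The mitosis genes and the lists were chosen with earlier results of these data known. RefSeq (GRCm38.p6) gave promoter sequences and GENCODE vM21 coding lengths. Alternatives were other pseudocounts, filters, scalings and variance models, summed copy rows, a replicate block and leaving out each library.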

Additional observations from a re-analysis of the deposited data

How the results depend on the processing

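The count of 0 mitosis genes passing, higher or lower, and of 0 in the wider mitosis, regulator, G1 and S phase lists, held in 13 of 14 alternatives. Of these, the fits without a filter and without the variance trend called 0 of all tested rows, so the count was fixed there. The other fits on all 4 libraries called from 24 to 126 of all tested rows, so 0 was near the background there too. That the count held therefore says little about the members. Leaving out 1 library each gave from 0 to 4 mitosis genes higher and 0 to 2 lower, 0 to 6 and 0 to 9 of the wider list, 0 to 5 and 0 to 2 regulators, 0 to 1 and 0 to 1 G1 genes, and 0 to 1 and 0 to 5 S phase genes, all calls arising without IL-16 replicate 1. The median difference of the mitosis genes ran from 0.029 to 0.11 in those fits, and was 0.12 after median-of-ratios scaling and 0.059 at a pseudocount of 5. Of all tested rows 19 were higher and 7 lower. The counts were 0 and 0 without a filter and without the variance trend, 36 and 12 with 1 FPKM in all 4 libraries, 40 and 13 after median-of-ratios scaling, 29 and 11 when rescaled to equal totals, and 73 and 53 with copies summed. They were 6 to 765 higher and 2 to 1300 lower when 1 library was left out, and a pseudocount of 5 gave 13 lower. With the replicate block 11 were lower. Same-numbered libraries deviated together with r = 0.0067 over tested rows, so the numbers were not taken as pairs, and the block called 0 mitosis genes. Of 490 values for single mitosis genes, 13 changed sign, in 7 genes, none of them called. Aurkb was 0.0243 after median-of-ratios scaling, 0.00558 when rescaled and -0.0643 to 0.0202 without single libraries. Ndc80 was 0.0171 after median-of-ratios scaling and -0.114 to 0.0576 without single libraries. Kif11 was -0.0247 with copies summed, where its rows merge, and -0.117 to 0.363 without single libraries. Without single libraries Cdc20 ran from -0.00353 to 0.133, Spc25 from -0.25 to 0.0122, Kif4 from -0.0138 to 0.0687 and Kif23 from -0.00594 to 0.143. The cause of these moves was otherwise not tested. The unknown depth and 2 libraries a group limit what differences could be resolved.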
